A study of Homo sapiens with 39 samples.

Results

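The genes described are 31 members of the Hippo pathway and its transcriptional output: 13 known target genes of the YAP-TEAD complex and 18 pathway components. They were taken by name from a list and followed through all 5 of the authors' deposited tables, in which each of them has an entry among 23710 genes. Targets and components were read apart. AMOTL2, LATS2 and PTPN14 are components that are also known targets, and they were counted with the components.

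The study lowered or raised the ubiquitin ligase TRIM37 in human cell lines and sequenced their RNA in 39 libraries. hTERT-RPE1 is a retinal pigment epithelial line immortalised with telomerase. It was represented by 9 wild type libraries, labelled as 3 sets of 3, and 9 TRIM37 knockout libraries, neither given a drug. CHP-134 is a neuroblastoma line. It was represented by 3 wild type libraries, 3 of mutant clone 1 and 3 of mutant clone 2, all without drug, and the labels call both mutants a partial TRIM37 knockout. Each mutant is a single clone, and both were compared with the same wild type libraries. hTERT-RPE1 cells with an inducible TetOn-TRIM37 construct were represented by clones 4 and 5, each with 3 untreated libraries and 3 libraries after 1 µM doxycycline for 24 h. The labels name no doxycycline-treated control without the construct, so the drug and TRIM37 cannot be told apart in those clones. They also do not say whether the RPE1 knockout is 1 clone, so a difference between lines and the loss of TRIM37 cannot be told apart there.

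The Hippo pathway is a kinase cascade that restrains growth in response to cell contact, cell shape and tension. The kinases MST1 and MST2, encoded by STK4 and STK3, act with the scaffold SAV1 to activate LATS1 and LATS2, which phosphorylate the coactivators YAP (YAP1) and TAZ (WWTR1) and hold them out of the nucleus. Unphosphorylated YAP and TAZ enter the nucleus, bind the DNA-binding factors TEAD1 to TEAD4 and switch on genes for matrix proteins, growth factors and cytoskeletal regulators. Part of this control acts on proteins, through phosphorylation, location and turnover, and RNA libraries do not measure it.

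TEAD factors bind a short core, GGAATG, read as CATTCC on the opposite strand. The RefSeq promoter table on GRCh38.p14 held 8 of the 13 targets, with 9 promoters, and 15 of the 18 components, with 20 promoters. The targets CYR61, CRIM1, ARHGEF17, ASAP1 and DLC1 and the components STK3, TEAD1 and TEAD4 had no entry. In the 250 bases before the start, 4 of the 9 target promoters and 3 of the 20 component promoters held a core on either strand, against 11.9% of all 35116 promoters in the table. At least 3 cores stood in 28 of all promoters (0.0797%), and the promoter of CTGF was 1 of them. The promoters of the targets CTGF, ANKRD1 and TGFB2 and of the coactivator YAP1 are shown because they belong to members whose levels are described below, and the capitals mark the cores. The regions are chr6:131951373-131951622 on the minus strand for CTGF, chr10:90921088-90921337 on the minus strand for ANKRD1, chr1:218345086-218345335 on the plus strand for TGFB2 and chr11:102110197-102110446 on the plus strand for YAP1.
CTGF: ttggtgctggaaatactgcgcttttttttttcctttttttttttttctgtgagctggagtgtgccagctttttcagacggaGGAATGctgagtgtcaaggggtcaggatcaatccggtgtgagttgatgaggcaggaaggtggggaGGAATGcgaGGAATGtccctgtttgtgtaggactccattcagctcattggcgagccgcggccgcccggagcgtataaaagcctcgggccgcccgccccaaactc
ANKRD1: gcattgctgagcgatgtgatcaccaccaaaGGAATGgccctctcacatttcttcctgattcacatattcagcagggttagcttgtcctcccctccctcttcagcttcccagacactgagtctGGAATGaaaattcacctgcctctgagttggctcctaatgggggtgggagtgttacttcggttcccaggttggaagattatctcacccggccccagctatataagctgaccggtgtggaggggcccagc
TGFB2: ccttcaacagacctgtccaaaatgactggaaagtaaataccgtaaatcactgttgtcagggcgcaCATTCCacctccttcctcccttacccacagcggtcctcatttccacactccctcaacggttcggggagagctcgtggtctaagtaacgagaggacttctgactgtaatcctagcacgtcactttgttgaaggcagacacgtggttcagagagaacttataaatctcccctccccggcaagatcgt
YAP1: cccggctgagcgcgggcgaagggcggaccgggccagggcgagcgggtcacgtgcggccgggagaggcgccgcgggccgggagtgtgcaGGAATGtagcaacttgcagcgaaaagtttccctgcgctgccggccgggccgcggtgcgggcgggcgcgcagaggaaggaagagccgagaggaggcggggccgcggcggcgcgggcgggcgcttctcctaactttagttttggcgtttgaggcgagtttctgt
The cores of CTGF begin 169, 104 and 95 bases before the start and those of ANKRD1 begin 220 and 128 bases before it. TGFB2 has its core on the opposite strand, beginning 185 bases before the start, and YAP1 has 1 core beginning 162 bases before it. Neither of the 2 promoters of WWTR1 held these letters in that window. A match describes the letters of the window and does not show that a factor binds there.

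In each of the authors' deposited tables a gene has a mean count over all libraries of the comparison, a log2 fold change and its error (SE, standard error), a q value (an adjusted p-value) and a status. Genes under a mean count of 10 have the status Low, some others the status Outlier, and the rest are called usable here. A member was called risen or fallen at the authors' q under 0.05. No value per library was held, so neither the depth of a library nor the spread between libraries is known. The labels do not say that replicates were separate cultures, so q may measure technical spread only. The altered gene, TRIM37, stood at -1.95 (SE 0.0461) in the RPE1 knockout, -1.66 and -1.75 in CHP-134 clones 1 and 2, and 3.19 and 2.64 in TetOn clones 4 and 5, all log2 fold changes of the authors' deposited tables. The headers do not give the direction of a comparison, and it was set by the sign of this gene, which therefore does not check the labels. In CHP-134 the neuroblastoma marker MYCN had a mean count of 49700 in the clone 1 table, while TH and DBH were Low. In the RPE1 knockout table RPE65, RLBP1, TYR and BEST1, markers of mature pigment epithelium, were Low, MITF and OTX2 were usable, and 7 of 10 neuroblastoma markers were Low.

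The lines differed in which targets were detected and at what level. All 13 targets were above the count limit in every RPE1 table, while 5 of the 13, ANKRD1, CRIM1, AXL, NT5E and MYOF, were Low in both CHP-134 tables, and CRIM1 and AXL were listed at 0 there. Levels were scaled to CPM of the mean count, taken over the table's total, per kilobase of exon (GENCODE v29), so that genes can be compared, but the tables were normalised separately and levels across them are a description without a test. On this scale CTGF, the gene of the matricellular protein CCN2, stood at 185 in the RPE1 knockout table, 168 and 377 in the tables of TetOn clones 4 and 5, and 0.212 and 0.215 in those of CHP-134 clones 1 and 2. CYR61, its relative CCN1, stood at 333 in the knockout table and at 0.511 in that of CHP-134 clone 1. For other targets the levels lay closer: FJX1, the homologue of a fly planar polarity gene, stood at 9.39 in the knockout table and 12.6 in that of CHP-134 clone 1, and TGFB2 at 74.2 and 55.5. TGFB2 also varied within each line, at 20.9 and 61.4 in the tables of TetOn clones 4 and 5 and 39.4 in that of CHP-134 clone 2. It had the status Outlier in both CHP-134 tables and in that of TetOn clone 5.

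The coactivators also had higher levels in the RPE1 tables, while the level of their DNA-binding partner TEAD1 lay close in both lines. On the same scale YAP1 stood at 45.1 in the RPE1 knockout table, 41.2 and 38.5 in the TetOn tables, and 1.8 and 2.33 in the CHP-134 tables. WWTR1 stood at 17.7, 25.3 and 20.1 in the 3 RPE1 tables, and was Low in both CHP-134 tables, with mean counts of 3.22 and 1.45. YAP1 was thus the more abundant of the pair per length in RPE1, at 2.55 times WWTR1 in the knockout table, 1.63 times in that of TetOn clone 4 and 1.92 times in that of TetOn clone 5. The level of TEAD1 lay between 21.0 and 27.4 in all 5 tables, and that of the kinase gene LATS2 was 7.25 in the knockout table and 0.201 in that of CHP-134 clone 1. Among the components 17 of 18 were above the count limit in every RPE1 table. The exception was AMOT, an angiomotin that holds YAP at junctions and in the cytoplasm, which was Low in TetOn clone 4 (mean count 1.32) and at a mean count of 129 in TetOn clone 5.

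**Figure D1:**
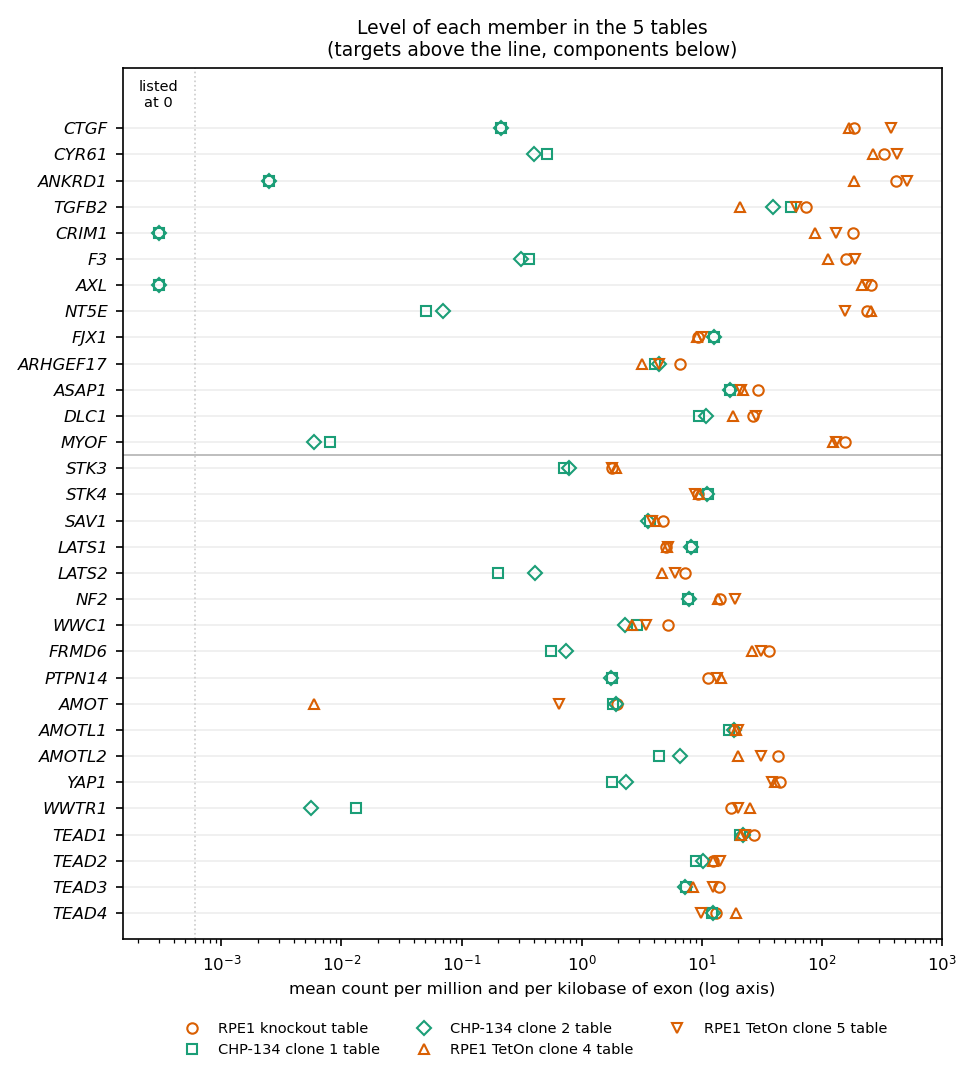
Level of each of the 31 members in the 5 tables, as CPM of the mean count per kilobase of exon on a log axis; each symbol is 1 table, RPE1 tables in orange and CHP-134 tables in green. YAP1 lies at 38.5 to 45.1 in the RPE1 tables and at 1.8 and 2.33 in the CHP-134 tables, while TEAD1 lies between 21.0 and 27.4 in all 5.

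Loss of TRIM37 in RPE1 went with lower levels of most YAP-TEAD targets, and the fall was unequal among them. Of the 13 targets 12 were usable, 10 fell and 2 rose, where 26.9% of all 13002 usable genes fell and 26.6% rose in the authors' deposited table. The median log2 fold change of the usable targets was -0.39, against -0.0022 over all usable genes. A lower level of targets as a group in this knockout was known when the list was drawn up, so its direction is no independent evidence. In bulk libraries a change in the share of cells that express a gene and a change per cell cannot be told apart.

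The deepest falls among the usable targets came in genes of different kinds. TGFB2, which encodes a transforming growth factor beta ligand, fell to 43.5% of its wild type level (-1.20, SE 0.0279, q printed as 0) in the authors' deposited table. ANKRD1, a nuclear ankyrin repeat cofactor first known from heart muscle, fell to 48.6% (-1.04, SE 0.0218) in the authors' deposited table. CRIM1, a membrane protein that binds bone morphogenetic proteins, fell to 55.2% (-0.86, SE 0.0231) there. These 3 had the lowest levels relative to wild type among the usable targets. In the promoter windows shown above ANKRD1 has 2 cores and TGFB2 has 1, and no promoter of CRIM1 was held.

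F3, which encodes tissue factor, the cell surface starter of coagulation, fell to 60.9% (-0.72, SE 0.0176) in the authors' deposited table. DLC1, a GTPase-activating protein, fell to 66.7% (-0.59, SE 0.0348) in the same authors' deposited table. CYR61 fell to 67.7% (-0.56, SE 0.0206) there. The related matricellular gene CTGF, which held the most cores of any promoter shown, fell only to 91.3% (-0.13, SE 0.0237, q = 1.25e-07) in the authors' deposited table. So the 2 CCN genes, the targets most often read as the pathway's output, fell by unequal amounts, and the difference between them was not tested. No promoter of CYR61 or DLC1 was held, and the promoter window of F3 had no core. Whether the number of cores goes with the size of a fall was not tested.

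The remaining called targets changed by smaller amounts, in both directions. ARHGEF17, a guanine nucleotide exchange factor, stood at 85.6% of wild type, MYOF, a membrane repair protein, at 91.3%, and the receptor tyrosine kinase gene AXL at 93.8%, and all 3 fell at the authors' q in the deposited table. MYOF, at -0.13 (SE 0.0399), stood at -0.041 with the median of its chromosome 10 (-0.090) removed and then lost the call. NT5E, the ectonucleotidase CD73, rose to 111% (0.16, SE 0.0237, q = 2.14e-10), and FJX1 rose to 114% (0.19, SE 0.0567, q = 0.00219) in the authors' deposited table. ASAP1, an Arf GTPase-activating protein, had the status Outlier, with a value of 0.10 (SE 0.0503), and was not counted.

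**Figure D2:**
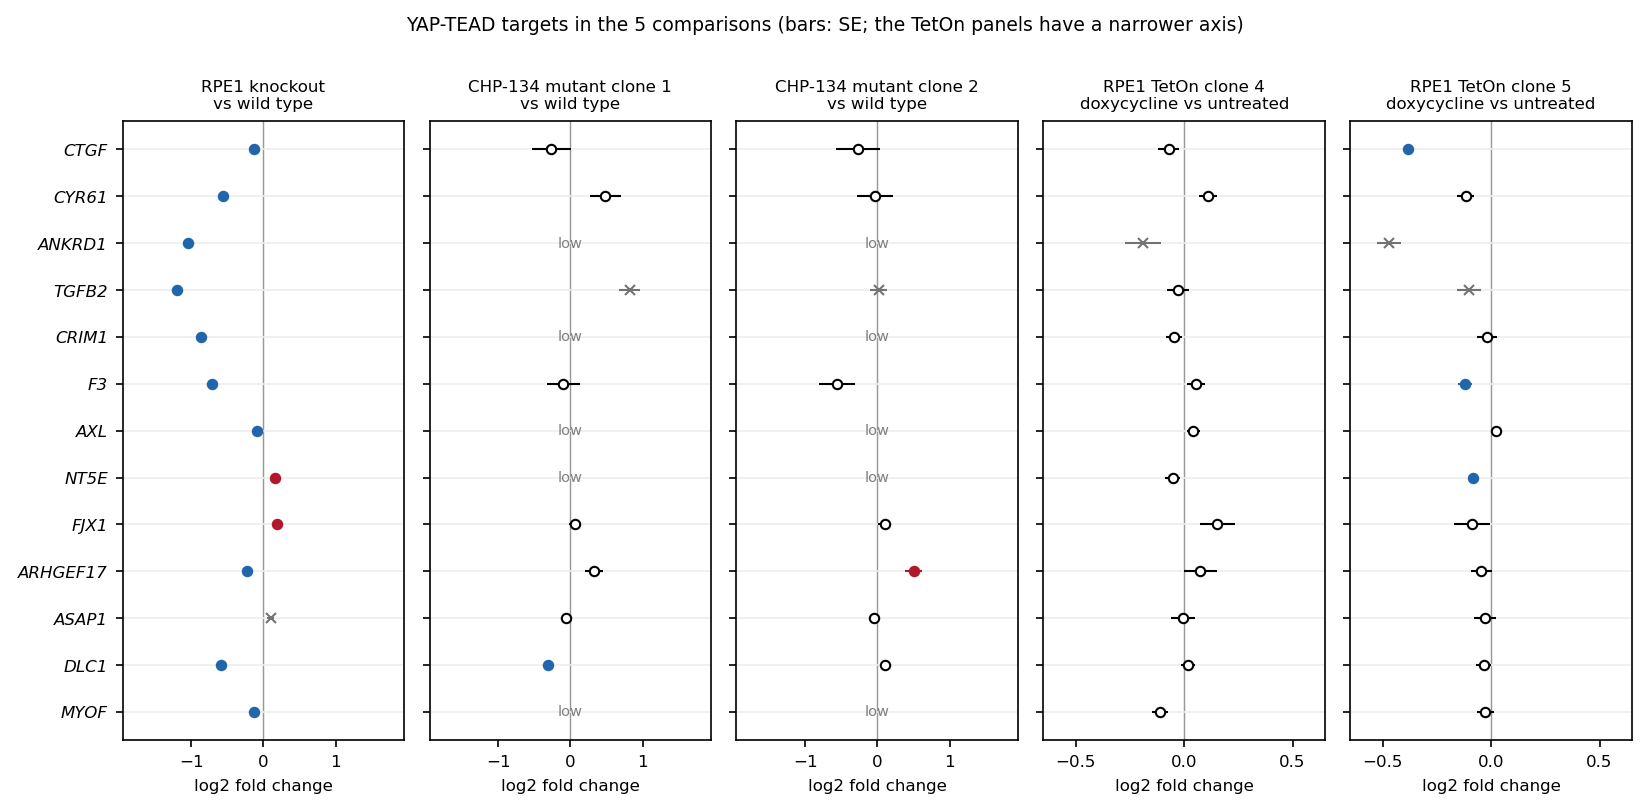
Log2 fold change of the 13 YAP-TEAD targets in the 5 comparisons, with the authors' SE as bars; filled blue points fell and filled red points rose at q under 0.05, open points were not called, crosses have the status Outlier and "low" marks genes under the count limit. In the RPE1 knockout panel 10 points are blue and 2 red, and in TetOn clone 4 none is filled.

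Components of the pathway moved in both directions in the RPE1 knockout: 5 rose, 7 fell and 5 were not called among 17 usable ones, with a median of -0.059. These shares, 29.4% up and 41.2% down, stand beside the 26.6% and 26.9% of all usable genes given above. In the kinase core the values of STK3 (-0.0081, SE 0.0668) and STK4 (-0.0027, SE 0.0296) in the authors' deposited table were not called. SAV1 rose (0.27, SE 0.0529) and LATS1 fell (-0.18, SE 0.0614, q = 0.00924) in the authors' deposited table, while LATS2, at -0.059 (SE 0.0566), was not called.

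The upstream regulators that were usable all fell. WWC1, the scaffold KIBRA, fell to 52.5% of wild type (-0.93, SE 0.0334) in the authors' deposited table. NF2, the gene of merlin, a membrane-linked scaffold for LATS activation, fell to 73.0% (-0.46, SE 0.0244) there. FRMD6, a FERM domain protein of the same group, fell to 81.6% (-0.29, SE 0.0147) in the authors' deposited table. PTPN14, a phosphatase that binds YAP, had the status Outlier at 0.22 (SE 0.0621), and passed as risen with outliers kept. The angiomotins diverged, as AMOT rose to 211% (1.08, SE 0.0633), AMOTL1 fell to 86.2% (-0.22, SE 0.0337) and AMOTL2 was not called (-0.059, SE 0.0322) in the authors' deposited table. The level of AMOT also differed widely among the RPE1 tables, at 16.8 CPM in that of the knockout, 0.05 in TetOn clone 4 and 5.47 in TetOn clone 5.

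Both coactivators rose while most of their targets fell. YAP1 rose to 114% (0.19, SE 0.0247, q = 1.71e-13) and WWTR1 to 121% (0.27, SE 0.0219, q = 1.65e-34) in the authors' deposited table. Of their DNA-binding partners TEAD3 fell to 65.9% (-0.60, SE 0.0397) and TEAD1, the TEAD gene with the highest level per length in this table, to 88.2% (-0.18, SE 0.0307) in the authors' deposited table. TEAD2 was not called (0.034, SE 0.0385). TEAD4 rose to 126% (0.33, SE 0.0469) in the authors' deposited table, but it lies on chromosome 12, where the median of 590 genes was 0.51 in this comparison. With that median removed TEAD4 stood at -0.18, so its direction turned. It was the only member on that chromosome.

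**Figure D3:**
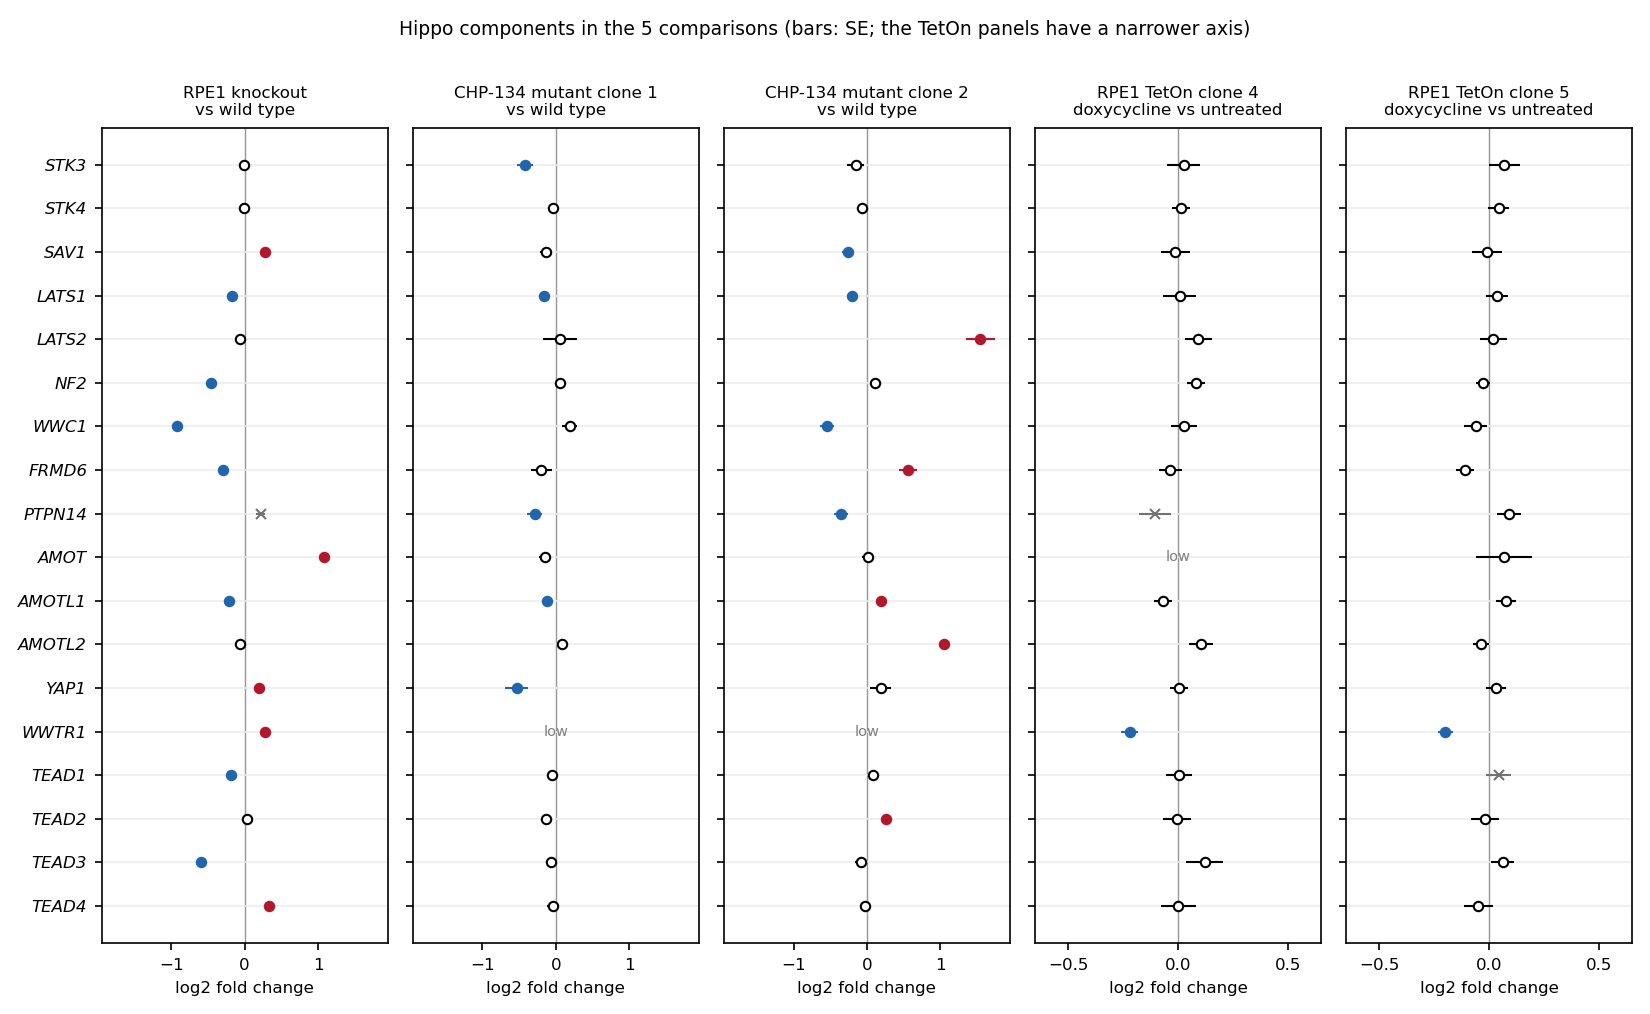
Log2 fold change of the 18 components in the 5 comparisons, drawn as for the targets. In the RPE1 knockout AMOT lies highest at 1.08 and WWC1 lowest at -0.93, and WWTR1 is the single filled point in each TetOn panel.

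Further genes of the pathway were read from longer lists. All 10 further targets were usable in the knockout, and 8 fell and 2 rose, with a median of -0.36. Among the members of this list named by rule were NUAK2, a kinase of the AMPK family (-1.79, SE 0.11), RBMS3, an RNA-binding protein (-1.08, SE 0.0459), and CCDC80, a matrix protein (-0.37, SE 0.0184), each fallen in the authors' deposited table. Of 49 further components 42 were usable, 7 rose (16.7%) and 19 fell (45.2%), where 26.6% of all usable genes rose and 26.9% fell. More of this list fell than rose, but those named, taken by the smallest q, all rose. In the authors' deposited table they were WWC3, a relative of WWC1 (0.79), the kinases MAP4K4 (0.28) and TAOK3 (0.69), and NUAK1 (0.75). With the median of chromosome 12 removed TAOK3 stood at 0.18 and NUAK1 at 0.24.

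Fewer of these calls held under stricter rules. With a fold of at least 1.5 added, which leaves 12.7% of the 13002 usable genes called, 5 of 12 targets remained called, all down, and 3 of 17 components. With the test statistic rescaled to its own central spread over usable genes, which leaves 9.7% of genes called, CYR61, ANKRD1, TGFB2, CRIM1, F3 and DLC1 remained among the targets, and NF2, WWC1, FRMD6, AMOT, WWTR1 and TEAD3 among the components.

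**Figure D4:**
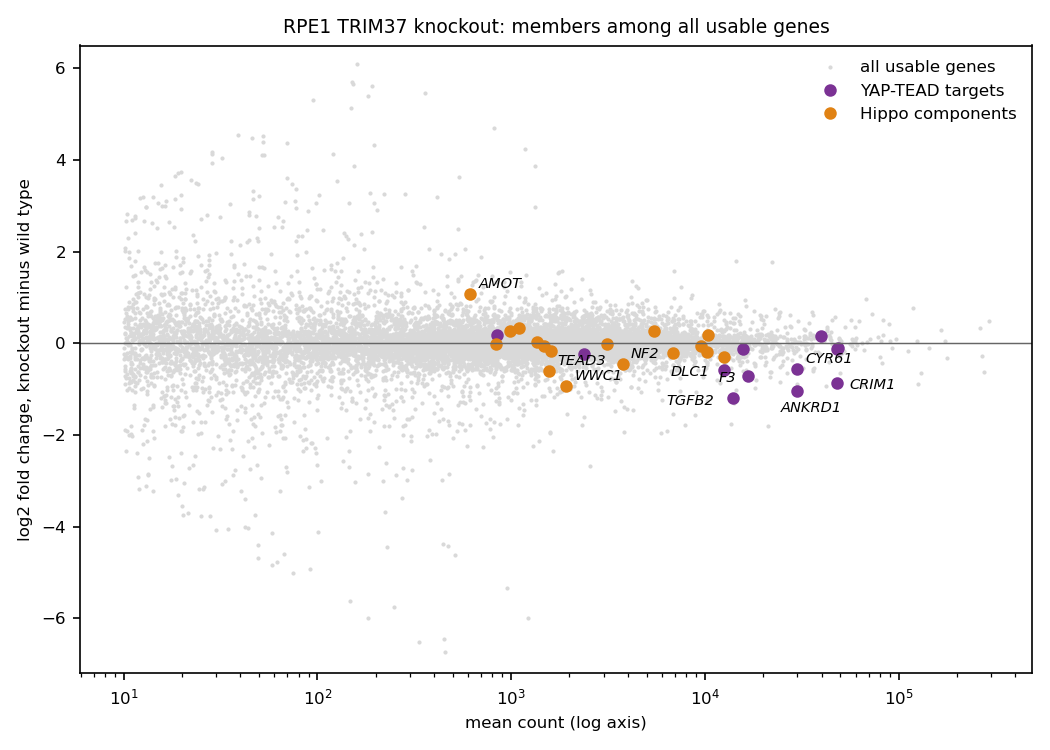
Log2 fold change in the RPE1 TRIM37 knockout against mean count on a log axis, with each usable gene in grey, targets in purple and components in orange; members beyond 0.4 in either direction are named. TGFB2 at -1.20, ANKRD1 at -1.04 and CRIM1 at -0.86 lie at mean counts of 14000, 29900 and 47900, and AMOT at 1.08 lies at 616.

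Raising TRIM37 for 24 h in RPE1 went with small changes of few members. In TetOn clone 4, where 0.716% of 12153 usable genes rose and 1.23% fell, none of 12 usable targets was called by the authors' DESeq2 q and their median was 0.0050. At an unadjusted p under 0.05 there were 2, CYR61 and MYOF. Of 16 usable components 1 fell and none rose. In TetOn clone 5, where 0.795% of 12195 usable genes rose and 2.17% fell, 3 of 11 usable targets fell, none rose and the median was -0.045. Of 17 usable components 1 fell.

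The component called in both clones was WWTR1. In clone 4 it fell to 85.9% of the untreated level (-0.22, SE 0.0395, q = 5.18e-06) in the authors' deposited table. In clone 5 it fell to 87.1% (-0.20, SE 0.0344, q = 8.52e-07) in the authors' deposited table. The falls lay within each other's error, with a difference of 0.02 (SE 0.0524, adjusted p = 1 in the comparison of the 2 clones described below). Its paralog YAP1 was not called in either clone, at 0.0044 with a 95% interval from -0.073 to 0.082 in clone 4 and 0.032 with an interval from -0.059 to 0.12 in clone 5, from the SE in the authors' deposited tables.

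WWTR1 was also the only member called in both directions across the RPE1 tables with a call in each of them: it rose in the knockout and fell with induction in both clones. The 3 comparisons share no libraries. Over the 11629 genes usable in all 3, 76 fell in both TetOn clones, and of these 41 (53.9%) rose in the knockout, 28 (36.8%) fell and 7 (9.21%) were not called. Of all usable genes 26.6% rose in the knockout, and whether the 76 differ from them was not tested. WWTR1 was the only member among the 76, and with the rescaled statistic it remained called in all 3 comparisons. WWTR1 shares exon bases with a gene on the opposite strand, WWTR1-AS1, and the strand setting of the counts is not given, so reads of the 2 genes cannot be told apart.

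Among the 11 usable targets CTGF had the largest change in clone 5. It fell to 76.7% of the untreated level (-0.38, SE 0.025, q printed as 0) there, while in clone 4 it stood at 95.1% (-0.073, SE 0.0504, q = 0.729) in the authors' deposited tables. F3 fell to 91.9% (-0.12, SE 0.0323, q = 0.00821) and NT5E to 94.4% (-0.084, SE 0.0223, q = 0.00921) in clone 5, per the authors' deposited table. In clone 4 F3 stood at 0.054 (SE 0.0421) and NT5E at -0.053 (SE 0.0341) in the authors' deposited table, neither called.

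ANKRD1, one of the deepest falls of the knockout, had the status Outlier in both clones, with values of -0.19 (SE 0.0835) in clone 4 and -0.47 (SE 0.0559) in clone 5, per the authors' deposited tables, and it carried no call. With outliers kept it passed in clone 5 and not in clone 4. TGFB2 stood at -0.027 (SE 0.0515) in clone 4 and had the status Outlier in clone 5 at -0.10 (SE 0.0542). CRIM1 stood at -0.047 (SE 0.0356) and -0.019 (SE 0.0461), per the authors' deposited tables, called in neither clone. None of these 3 targets thus carried a call after 24 h of induction.

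Of the further targets IGFBP3 and THBS1 fell in both clones. IGFBP3, a carrier of insulin-like growth factors, gave -0.45 (SE 0.0354) for clone 4 and -0.48 (SE 0.0336) for clone 5 in the authors' deposited tables, and -0.35 (SE 0.0242) in the knockout. THBS1, the matrix protein thrombospondin 1, stood at -0.39 (SE 0.0386) and -0.51 (SE 0.0433), per the authors' deposited tables of the clones, and at -0.11 (SE 0.0279) in the knockout, where both are given for comparison. Both thus fell in the knockout and with induction. In clone 4 these were the 2 fallen of 9 usable further targets, where 1.23% of all usable genes fell. In clone 5 4 of 10 further targets fell, where 2.17% of all usable genes did. Among the 4 was CCDC80, at -0.12 (SE 0.0322) in the authors' deposited table. The list was chosen with earlier results of these data known. Among further components 1 of 40 was called in clone 4, AJUBA, a LIM protein that binds LATS kinases (0.18, SE 0.0395), and none of 38 in clone 5 by the authors' DESeq2 q, with 3 at an unadjusted p under 0.05.

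In CHP-134 few targets were usable and few were called. Each table left 7 of the 13 usable, with 5 Low and TGFB2 as Outlier. In clone 1, where 9.6% of 12791 usable genes rose and 9.07% fell, 1 target fell and none rose. In clone 2, where 22.0% of 12771 usable genes rose and 24.2% fell, 1 target rose and none fell. The 2 comparisons share their wild type libraries, so their values are given side by side and no likeness is read from them.

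DLC1 was the target that fell in clone 1, to 80.6% of wild type (-0.31, SE 0.0649, q = 4.4e-05), and it stood at 0.11 (SE 0.0681, q = 0.181) in clone 2, per the authors' deposited tables. ARHGEF17 rose in clone 2, to 142% (0.51, SE 0.118, q = 9.44e-05), and stood at 0.33 (SE 0.129, q = 0.0602) in clone 1, per the authors' deposited tables. The CCN genes were near the count limit, with a mean count of 14.4 for CTGF and 36.4 for CYR61 in the clone 1 table. CTGF stood at -0.26 in both clones, with SE of 0.272 and 0.307 in the authors' deposited tables. CYR61 stood at 0.48 (SE 0.216, q = 0.103) in clone 1 and -0.033 (SE 0.247) in clone 2, per the authors' deposited tables. In the RPE1 knockout the SE of these genes were 0.0237 and 0.0206, and a fall of the size seen for either gene in the RPE1 knockout lies within 3 SE of 0 here. TGFB2 carried no call, at 0.82 (SE 0.147) and 0.02 (SE 0.12) with the status Outlier in both of the authors' deposited tables. With outliers kept it passed in clone 1.

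Of the components 17 of 18 were usable in CHP-134, and the directions of their calls differed between the clones. In clone 1 5 of 17 usable components fell (29.4%) and none rose, where 9.07% of all usable genes fell and 9.6% rose. Their median was -0.12, against -0.0068 over all usable genes. In clone 2 5 rose (29.4%) and 4 fell (23.5%) of 17, near the 22.0% and 24.2% of all usable genes. The median there was 0.0090, against -0.012. In the kinase core STK3 fell in clone 1 to 74.7% of wild type (-0.42, SE 0.111, q = 0.00197) and stood at -0.15 (SE 0.112) in clone 2, per the authors' deposited tables. SAV1 fell in clone 2 (-0.26, SE 0.0822) and stood at -0.13 (SE 0.0866) in clone 1, per the authors' deposited tables. In the authors' deposited tables LATS1 fell in both clones, by -0.16 (SE 0.0445) and -0.20 (SE 0.0551). With the median of chromosome 6 (-0.085 in clone 2) removed LATS1 stood at -0.11 in clone 2 and lost the call there.

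LATS2 was the member with the highest rise in clone 2, to 293% of wild type (1.55, SE 0.195, q = 5.74e-14), while clone 1 stood at 0.052 (SE 0.231) in the authors' deposited tables. Its counts were low, with a mean of 70.9 in the clone 2 table and 32.5 in that of clone 1. AMOTL2, like LATS2 also a known YAP-TEAD target, rose to 207% in clone 2 (1.05, SE 0.0555, q printed as 0) and stood at 0.084 (SE 0.0645) in clone 1, per the authors' deposited tables. PTPN14, the other component that is a known target, fell in both of the authors' deposited tables, by -0.29 (SE 0.097, q = 0.0202) in clone 1 and -0.36 (SE 0.1, q = 0.00153) in clone 2.

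Of the other upstream regulators WWC1 and FRMD6 were called in clone 2 and not in clone 1. WWC1 fell to 68.7% (-0.54, SE 0.0917) and FRMD6 rose to 148% (0.56, SE 0.126) in clone 2, against 0.19 (SE 0.103) and -0.20 (SE 0.139) in clone 1, per the authors' deposited tables. NF2 was not called, at 0.063 (SE 0.063) and 0.11 (SE 0.0678). AMOTL1 fell in clone 1 (-0.12, SE 0.0365, q = 0.0137) and rose in clone 2 (0.19, SE 0.0397, q = 7.58e-06) in the authors' deposited tables.

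YAP1 fell to 69.0% of wild type in clone 1 (-0.54, SE 0.16, q = 0.00777) and stood at 114% in clone 2 (0.19, SE 0.141, q = 0.269) in the authors' deposited tables. Of the TEAD genes TEAD2 alone was called, as it rose in clone 2 (0.26, SE 0.0648, q = 0.000325) in the authors' deposited table. It lies on chromosome 19, where the median of 607 genes was 0.20 in clone 2. With that median removed TEAD2 stood at 0.057 and lost the call, while in clone 1 it went from -0.13 to -0.18 (SE 0.0613) with the chromosome median removed and passed as fallen. TEAD1, TEAD3 and TEAD4 lay between -0.080 and 0.085 over the 2 clones in the authors' deposited tables. With the test statistic rescaled to its own central spread, no member remained called in clone 1 and only AMOTL2 in clone 2, where 1.9% and 1.98% of all usable genes remained.

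Of the 10 further targets 5 were usable in each CHP-134 table. None was called in clone 1 by the authors' DESeq2 q, with 1 at an unadjusted p under 0.05, and in clone 2 RBMS3 fell (-0.31, SE 0.092) in the authors' deposited table, and stood at -0.20 with the median of its chromosome removed. Of 41 usable further components 3 rose (7.32%) and 8 fell (19.5%) in clone 1, where 9.6% of all usable genes rose and 9.07% fell. In clone 2 10 rose (24.4%) and 11 fell (26.8%), near the 22.0% and 24.2% of all usable genes. In the authors' deposited tables the polarity scaffold DLG1 fell in clone 1 (-0.13, SE 0.0403) and in clone 2 (-0.63, SE 0.0581). With the median of its chromosome 3 removed DLG1 stood at -0.12 and -0.51. Whether its neighbours on that chromosome fell with it was not tested. The other further components named by rule in clone 1 were MPP5 (-0.45), WWC2 (-0.32) and VGLL4 (0.21), a TEAD-binding repressor. Those in clone 2 were WTIP (1.82, SE 0.202, mean count 71.6), CSNK1D (0.36) and LLGL1 (0.60), all in the authors' deposited tables.

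Whether 2 clones responded differently was tested gene by gene: the log2 fold change of one was subtracted from that of the other, divided by the combined SE of both and read against a normal distribution, two-sided, and the p-values of all genes usable in both tables were adjusted by the Benjamini-Hochberg method. Between TetOn clones 5 and 4, 0.221% of 11778 genes differed, and of 26 members tested 2 did, both targets. The difference of clone 5 minus clone 4 was -0.31 for CTGF (SE 0.0563, adjusted p = 8.88e-05) and -0.23 for CYR61 (SE 0.0566, adjusted p = 0.0344). CYR61 was called in neither clone, at 0.11 (SE 0.0401) in clone 4 and -0.12 (SE 0.04) in clone 5, per the authors' deposited tables. F3, which was called in clone 5 and not in clone 4, was not shown to differ (-0.18, SE 0.0531, adjusted p = 0.193), and neither was NT5E (-0.031, SE 0.0407, adjusted p = 1). TRIM37 itself rose less in clone 5 than in clone 4, and the part of this in the difference of CTGF was not tested.

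Between CHP-134 clones 2 and 1, 20.5% of 12579 genes differed, and so did 1 of 7 targets and 7 of 17 components tested, 6 of the 7 being higher in clone 2. Of all genes that differed, 1169 were higher and 1411 lower in clone 2. The shared wild type libraries make this test conservative, but SE that hold technical spread only would make it too lenient. With the test statistic rescaled to its own central spread, 4.76% of genes and 2 of the members remained. LATS2 and YAP1 were not among these 2, since AMOTL2 and AMOTL1 ranked ahead of them in the same direction. Without the rescaling AMOTL2 differed by 0.97 (SE 0.0851, adjusted p = 9.57e-28), LATS2 by 1.5 (SE 0.302, adjusted p = 1.2e-05) and YAP1 by 0.73 (SE 0.213, adjusted p = 0.00534). FRMD6 (0.76), TEAD2 (0.39) and AMOTL1 (0.31) were also higher in clone 2, and so was the target DLC1 (0.42). With chromosome medians removed the difference of TEAD2 was 0.24 and it still passed. WWC1 was lower in clone 2, with a difference of -0.74 (SE 0.138, adjusted p = 1.89e-06). STK3, called in clone 1 only, was not shown to differ (0.27, SE 0.158, adjusted p = 0.245), nor was SAV1 (-0.13, SE 0.119, adjusted p = 0.512). ARHGEF17 was not shown to differ either (0.18, SE 0.175, adjusted p = 0.529). The mutants are labelled as partial knockouts of 1 line, and their TRIM37 changes were not shown to differ by this test.

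**Figure D5:**
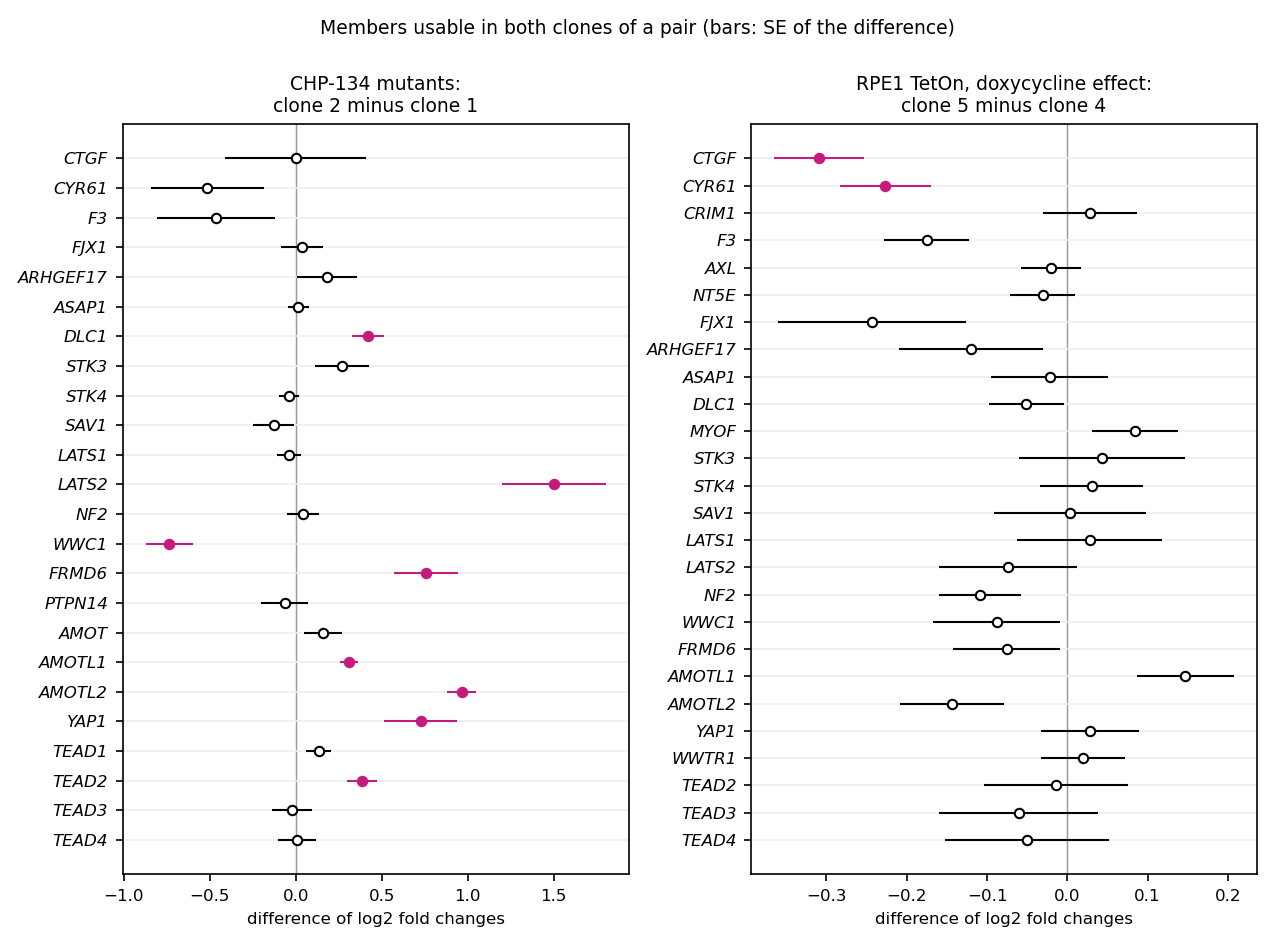
Difference of the log2 fold changes between the clones of a pair for members usable in both tables, with the SE of the difference as bars; filled points have an adjusted p under 0.05. On the left CHP-134 clone 2 minus clone 1 has 8 filled points, from WWC1 at -0.74 to LATS2 at 1.5, and on the right TetOn clone 5 minus clone 4 has 2, CTGF at -0.31 and CYR61 at -0.23.

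Across the 5 comparisons 29 of the 31 members were called at least once, and ASAP1 and STK4 never, where 70.7% of the 14783 genes usable in at least 1 comparison were called at least once. No member rose in more than 1 comparison, against 9.54% of those genes. Among comparisons that share no libraries, CTGF and F3 fell in the RPE1 knockout and TetOn clone 5, DLC1 and AMOTL1 in the knockout and CHP-134 clone 1, WWC1 in the knockout and CHP-134 clone 2, and WWTR1 in both TetOn clones. With the rescaled statistic only F3 and WWTR1 kept both of these calls. The share of all genes that fell in more than 1 comparison was not taken, so these repeated falls are a description. A group of 7 members rose in 1 comparison and fell in another: NT5E, ARHGEF17, SAV1, FRMD6, AMOTL1, YAP1 and WWTR1, where 13.1% of those genes did so. LATS1 fell in the knockout and in each of the CHP-134 comparisons, which share wild type libraries, and it lost the call in each of them with the rescaled statistic, besides the loss in clone 2 given above. Of these 31 genes 12 share exon bases with a gene on the opposite strand in GENCODE v29, among them CTGF, AXL, ARHGEF17, LATS1, YAP1 and WWTR1, and their counts may hold reads of that gene.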

How the data were processed

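RNA of 39 hTERT-RPE1 and CHP-134 libraries in 9 groups was compared in 5 pairs of groups, as the labels define them. STAR and DESeq2 were used by the authors, per the submitters' processing notes. The counting rule, strand setting, build, annotation and all versions were not given in the sources used here. The deposited tables hold the authors' mean count per gene as a signal of unstated scaling, the authors' log2 fold change with its SE, and the authors' q value, an adjusted p-value, printed as 0 where too small to write. No value per library was held, so no count model was fitted, the deposited q under 0.05 is the call, and depth per library is unknown.

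The 31 members and all lists were chosen with earlier results of these data known. All members are named. Of the further pathway genes (10 targets and 49 components) only called ones with a mean count of at least 50 are named, at most the 4 with the smallest q per list and comparison, and no list was tested. A gene that this rule names is not reported here. Recomputing calls from each log2 fold change divided by its SE, with Benjamini-Hochberg adjustment gave 6959 genes against 6963 deposited in the knockout, 2391 against 2388 and 5900 against 5898 in CHP-134, and 236 against 237 and 362 against 362 in the TetOn clones. This step and the difference between clones were tested on simulated data. The simulated errors were drawn independently from the authors' SE, also for the CHP-134 pair with its shared wild type libraries. That checks the calculation only and cannot show whether those SE fit the data. Levels used GENCODE v29 exon lengths, summed over overlapping transcripts, and chromosomes came from RefSeq on GRCh38.p14 for 22744 of 23710 symbols. Chromosome medians were taken where the mean count reached 100. Motifs were searched on both strands of the RefSeq promoter table.

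Markers were read as counts only. In the RPE1 knockout, of 6 genes high in this line 5 were usable (3 up, 2 down), of 7 pigment epithelium markers 3 (1 up, 1 down), of 10 neuroblastoma markers 3 (2 up, 0 down) and of 5 markers of blood and muscle cells 2 (1 up, 0 down), with HBB listed at 0. Of all usable genes there 26.6% rose and 26.9% fell. In CHP-134 clone 1, of the neuroblastoma markers 6 were usable (5 up, 0 down), of the blood and muscle markers 2 (0 up, 0 down), of the pigment epithelium markers 3 (1 up, 2 down) and of the RPE1 genes 3 (0 up, 1 down). In clone 2 the neuroblastoma markers were 6 (3 up, 1 down) and the blood and muscle markers 2 (0 up, 1 down). The pigment epithelium markers were 3 there (0 up, 2 down) and the RPE1 genes 3 (1 up, 1 down). Of all usable genes 9.6% rose and 9.07% fell in clone 1, and 22.0% rose and 24.2% fell in clone 2. In TetOn clone 5, of the RPE1 genes 5 were usable (0 up, 3 down) and of the pigment epithelium markers 3 (0 up, 0 down). Of all usable genes 0.795% rose and 2.17% fell there. In TetOn clone 4 the RPE1 genes were 5 (1 up, 1 down), where 0.716% of all usable genes rose and 1.23% fell. Alternatives were other thresholds on q, a minimum fold of 1.5, a mean count of at least 100, a rescaled null, outliers kept and chromosome medians removed. Python 3.11.15, pandas 2.3.3, numpy 2.4.6 and scipy 1.17.1 were used.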

Additional observations from a re-analysis of the deposited data

Results flagged for a closer look

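The members below had different responses in the clones of a pair, by the test of the difference of the log2 fold changes with Benjamini-Hochberg adjustment. In the RPE1 TetOn pair the response to doxycycline in clone 5 minus that in clone 4 was -0.31 for CTGF and -0.23 for CYR61. In the CHP-134 pair the difference of clone 2 minus clone 1 was 1.5 for LATS2, 0.97 for AMOTL2, 0.76 for FRMD6, 0.73 for YAP1, 0.42 for DLC1, 0.39 for TEAD2, 0.31 for AMOTL1 and -0.74 for WWC1. Each clone is 1 line, and the part of clonal differences unrelated to TRIM37 was not tested.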

How the results depend on the processing

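In the RPE1 knockout the 12 called targets became 5 with a minimum fold of 1.5 and 6 with the rescaled null, and the 12 called components became 3 and 6. In CHP-134 clone 1 the 1 called target became 2 at q under 0.1, 2 with outliers kept (TGFB2 joining), 0 with the minimum fold and 0 with the rescaled null, and the 5 components became 3 at q under 0.01, 0 with the minimum fold and 0 with the rescaled null. In clone 2 the 1 target became 2 at q under 0.1, 2 with chromosome medians removed (DLC1 joining), 0 with the minimum fold and 0 with the rescaled null, and the 9 components became 2 with the minimum fold and 1 with the rescaled null. In TetOn clone 4 the targets went from 0 to 1 at q under 0.1 (MYOF), and the 1 component became 0 with the minimum fold. In TetOn clone 5 the 3 targets became 4 at q under 0.1 (CYR61 joining), 4 with outliers kept (ANKRD1 joining) and 0 with the minimum fold, and the 1 component became 0 with the minimum fold. The 2 members that differed between the TetOn clones became 1 at an adjusted p under 0.01, and the 8 of the CHP-134 pair became 2 with the rescaled null. With chromosome medians removed, added after seeing the data, the counts were again 2 and 8. TEAD4 in the knockout turned to -0.18 with the chromosome median removed, MYOF there and TEAD2 and LATS1 in CHP-134 clone 2 lost their calls, and TEAD2 in clone 1 and DLC1 and STK4 (-0.15) in clone 2 gained one. Over all single gene values under the alternatives, these included, 1093 stayed on their side of the threshold, 74 lost the call, 10 gained it and 1 turned. A stricter threshold or a minimum fold calls fewer genes by construction, and for the other changes the cause was not tested. No paired analysis was possible because no value per library was held, and leaving out libraries was not run for the same reason. Depth per library is unknown, and 5 of 13 targets were under the count limit in CHP-134 and gave no test there.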
